A study of Mus musculus with 6 samples.

Results

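Synaptic vesicle fusion genes encode the proteins that dock, prime and fuse transmitter-filled vesicles at the cell surface, together with their relatives on other membranes. They were read here on arrays of mouse hippocampal neurospheres, clusters that grow in suspension from neural stem and precursor cells. The genes were taken by name: synaptotagmins (Syt), syntaxins (Stx), syntaxin-binding proteins (Stxbp), VAMPs (Vamp), SNAPs (Snap), synapsins (Syn), SV2 proteins (Sv2) and complexins (Cplx). This gave 58 of the 19937 genes measured under a single symbol. They comprised 17 synaptotagmins, 14 syntaxins, 6 syntaxin-binding proteins, 6 VAMPs, 5 SNAPs, 3 synapsins, 3 SV2 proteins and 4 complexins. Vamp2, the main VAMP of neurons, was not analysed here under a symbol of its own. Each gene was represented by 1 probe set, and only Stxbp4 had 2.

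Vesicle fusion is driven by SNARE proteins. A VAMP on the vesicle zips together with a syntaxin and a SNAP on the target membrane, and syntaxin-binding proteins of the SM family guide that assembly. Complexins clamp and activate the assembled bundle, synaptotagmins make fusion respond to calcium, and synapsins hold vesicles in reserve. Neurons use a specialised set for transmitter release, while other family members serve endosomes, the Golgi, lysosomes and constitutive secretion in most cell types.

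One group of 3 samples was grown with 10 µM norepinephrine, a monoamine transmitter, and the other group of 3 with 15 mM KCl, which depolarises neurons. Both groups came from hippocampal tissue of adult male C57BL/6J mice of 8 to 12 weeks, were kept in neurosphere medium with EGF and bFGF, and were collected as primary neurospheres on day 14. The sample titles call them big neurospheres, with no size given. No untreated group was analysed here, so a difference sets the treatments against each other (norepinephrine minus KCl) and neither against an untreated level. Samples are named biological replicates in the labels, which do not say whether they came from separate mice or cultures, so the spread behind the p-values may be technical. All levels are log2 expression values, in which a difference of 1 is a doubling, and their precision is limited by having 3 arrays per treatment.

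The array of KCl replicate 1 stood apart. Over all named probe sets its standard deviation was 1.38 log2 units, against 1.62 to 1.78 on the other 5 arrays. It read highest of the 6 arrays for 39.7% of the 58 genes and lowest for 27.6%, and over all named probe sets for 51.2% and 25.1%. KCl replicate 2 was lowest more often, for 43.1% of the 58 genes and 31.8% of all probe sets. Differences without KCl replicate 1 are given beside those on all 6 arrays, and 17 of the 58 genes changed sign without it.

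As a group the fusion genes showed no common direction: 29 were higher with norepinephrine and 29 higher with KCl, and their median difference was -0.003. Over all genes the median was -0.075, and 38.0% of all probe sets were higher with norepinephrine. By limma with Benjamini-Hochberg adjustment over 21640 probe sets, 0 of the 58 genes had an adjusted p under 0.05, as did 0.0% of all probe sets. Adjusted p-values of the 58 ran from 0.939 to 0.997. At an unadjusted p under 0.05 there were 4 of 58, Snap25, Sv2a and Cplx2 higher with norepinephrine and Stx19 higher with KCl, while 3.43% of all probe sets reached it. By direction the shares of all probe sets were 2.2% and 1.24%. Samples of the groups did not overlap for 9 of the 58 genes, 7 with norepinephrine above and 2 with KCl above, where 9.13% of all probe sets did not overlap (4.36% and 4.77% by direction). Without KCl replicate 1 the median over all 19937 genes rose to 0.01, and 10498 of them were higher with norepinephrine. Of the 58 genes 34 were then higher with norepinephrine, at a median of 0.049. None of the 58 had an adjusted p under 0.05 without that array, where 0.0185% of all probe sets did. In that fit 4 had an unadjusted p under 0.05, all higher with norepinephrine (Snap25, Cplx2, Snap91 and Sv2a), where 4.63% of all probe sets reached it and 2.38% did so with norepinephrine higher. Without KCl replicate 2, 7 genes had an unadjusted p under 0.05, where 16.3% of all probe sets did. Among those 7, Syt7 was higher with KCl, at -0.699. When arrays were weighted by their agreement with their group, gene by gene, 5 of the 58 passed the adjusted threshold (Snap25, Sv2a, Cplx2, Snap91 and Vamp8), as did 6.72% of all probe sets, and 13 had an unadjusted p under 0.05, where 23.9% of all probe sets did. That fit rested largely on 1 KCl array, replicate 3, with a weight of 6.76 against 0.158 and 0.288 for KCl replicates 1 and 2.

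**Figure D1:**
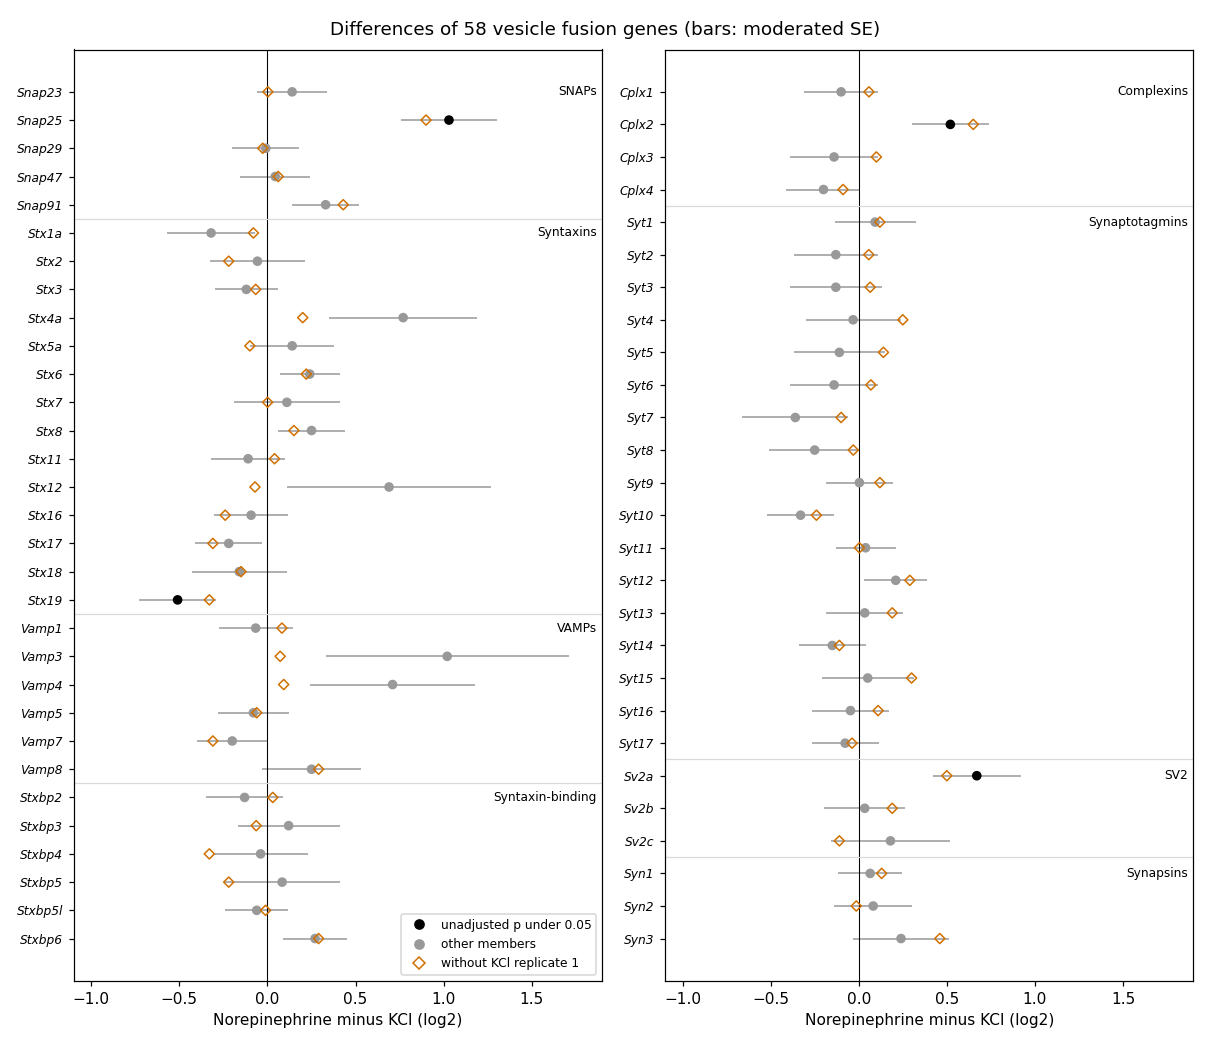
Norepinephrine minus KCl (log2, x axis) for each of the 58 genes (y axis), by family; circles are the difference on 6 arrays with its moderated standard error, black where the unadjusted p was under 0.05, and open diamonds are the difference without KCl replicate 1. Snap25 lies furthest right at 1.03 and keeps most of its distance from 0 without that array, whereas Vamp3, at 1.02, moves to 0.072.

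The SNAPs, which bring SNARE motifs to the target membrane, held the largest difference of the group. Snap25, the SNAP of neuronal transmitter release, read 8.23, 8.11 and 8.89 with norepinephrine, against 7.13, 7.23 and 7.78 with KCl. Every norepinephrine sample lay above every KCl sample, and replicate 3 was the highest in either group. The difference was 1.03 ± 0.27 (SE, n = 3 per group; 95% interval 0.40 to 1.65), or 2.04-fold, with an unadjusted p of 0.00479 and an adjusted p of 0.939 in limma. It was 0.90 without KCl replicate 1 and lay between 0.784 and 1.22 when each array was left out in turn. In bulk RNA, fewer cells that express a gene and less of its RNA per cell cannot be told apart.

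Snap23, the relative of Snap25 in non-neuronal cells, averaged 9.42 ± 0.12 with norepinephrine and 9.27 ± 0.25 with KCl (SD, n = 3 each), a difference of 0.14 ± 0.20, or 0.0023 without KCl replicate 1. Snap29, which acts on endosomes and autophagosomes, differed by -0.0096 and Snap47 by 0.044, and without that array by -0.027 and 0.061. Snap91 carries the SNAP name but encodes a clathrin assembly protein of vesicle retrieval, not a SNARE. It read 8.60, 8.42 and 8.51 with norepinephrine, against 8.39, 8.05 and 8.10 with KCl. Its groups were separate by a narrow margin, because KCl replicate 1 came close to the lowest norepinephrine sample. Its difference was 0.33 ± 0.19, and 0.43 ± 0.16 without that array.

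**Figure D2:**
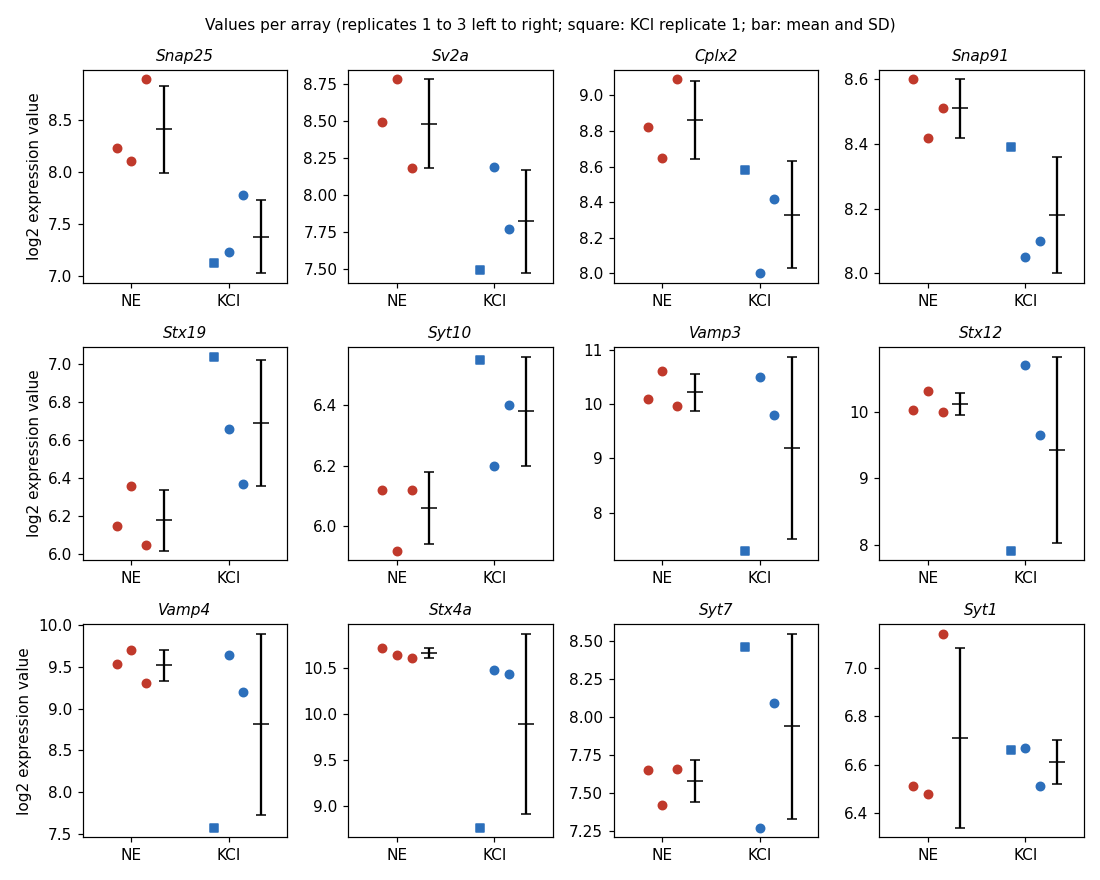
Log2 expression value on each array (y axis) for 12 genes, with norepinephrine (NE, red) left and KCl (blue) right; points are single arrays, the square is KCl replicate 1 and the black bar is the mean with its SD. Snap25 and Cplx2 separate the groups on all arrays, whereas the KCl means of Vamp3, Stx12, Vamp4 and Stx4a are pulled down by the square.

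Syntaxins, the membrane-anchored partners of the SNAPs, were mixed, with 6 of 14 higher with norepinephrine and differences from -0.507 to 0.769. Stx1a, the syntaxin of presynaptic membranes, read 7.01, 6.78 and 6.94 with norepinephrine, against 7.71, 6.85 and 7.13 with KCl. The groups overlapped, and the KCl mean owed its height to replicate 1: the difference was -0.32 ± 0.25 on all arrays and -0.08 without it. Stx4a, the syntaxin of general plasma membrane secretion, read 10.72, 10.64 and 10.61 with norepinephrine, against 8.76, 10.48 and 10.43 with KCl. All norepinephrine samples were above all KCl samples, but most of the difference of 0.77 ± 0.42 lay in KCl replicate 1, and 0.20 ± 0.16 remained without it.

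Stx19, a syntaxin without a membrane-spanning segment, gave the largest difference toward KCl. It read 6.15, 6.36 and 6.05 with norepinephrine, against 7.04, 6.66 and 6.37 with KCl. The closest samples differed by the last digit shown, and KCl replicate 1 was the highest. The difference was -0.51 ± 0.22 (unadjusted p = 0.0498, adjusted p = 0.939 in limma), and -0.33 without that array. Stx19 was among 7 of the 58 genes whose mean over the 6 arrays was not above the 30th percentile of all named probe sets, so it was a dim reading.

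The endosomal syntaxin Stx12 read 10.03, 10.32 and 10.00 with norepinephrine, against 7.91, 10.71 and 9.66 with KCl. KCl replicate 2 held its highest value and KCl replicate 1 its lowest, 2.80 apart. The difference of 0.69 ± 0.58 was -0.071 without KCl replicate 1, a change of sign. Other endosomal and Golgi syntaxins lay closer to 0, with Stx7 at 0.11, Stx8 at 0.25, Stx16 at -0.093 and Stx5a at 0.14. Without KCl replicate 1 these were 0.00061, 0.15, -0.24 and -0.10, so Stx5a changed sign. Stx6, which serves the trans-Golgi network, read 8.13, 8.05 and 8.03 with norepinephrine, against 7.79, 7.79 and 7.91 with KCl. These groups did not overlap, and the difference of 0.24 ± 0.17 was 0.22 without KCl replicate 1.

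Stx17, a syntaxin of autophagosomes, read 8.15, 7.93 and 7.84 with norepinephrine, against 8.03, 8.28 and 8.28 with KCl. KCl replicate 1 lay within the norepinephrine range and the other KCl samples above it, giving -0.22 ± 0.19 on all arrays and -0.31 without that one. Stx18, of the endoplasmic reticulum, read 7.70, 8.15 and 7.51 with norepinephrine, against 7.97, 8.38 and 7.51 with KCl. Its groups covered nearly the same range, and the difference was -0.16 ± 0.27, or -0.15 without KCl replicate 1. The plasma membrane syntaxins Stx2 and Stx3 stood at -0.057 and -0.12, and Stx11, known from immune cells, at -0.11. Without that array they were -0.22, -0.067 and 0.04.

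VAMPs, the vesicle-side SNAREs, showed no separation of the groups in any of 6 genes. Vamp3, which recycles endosomal vesicles in most cell types, read 10.09, 10.61 and 9.97 with norepinephrine, against 7.30, 10.50 and 9.80 with KCl. A single KCl array lay far below the other 5, and the difference of 1.02 ± 0.69 was 0.072 ± 0.26 without it. Vamp4, of the trans-Golgi network, read 9.54, 9.70 and 9.31 with norepinephrine, against 7.57, 9.64 and 9.20 with KCl. It repeated that picture, with 0.71 ± 0.47 on all arrays and 0.092 without KCl replicate 1.

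Vamp7, a lysosomal VAMP that also serves neurite outgrowth, read 9.08, 9.16 and 9.24 with norepinephrine, against 9.15, 9.63 and 9.31 with KCl. Only KCl replicate 1 overlapped the norepinephrine samples, and the difference was -0.20 ± 0.20, or -0.31 without that array. Vamp8, of late endosomes and secretory granules, differed by 0.25 ± 0.28 and by 0.29 without that array. Vamp1, the synaptic VAMP measured here, differed by -0.067 and Vamp5, known from muscle, by -0.08. Without KCl replicate 1 they differed by 0.082 and -0.061.

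Syntaxin-binding proteins ran from -0.125 to 0.267. Stxbp6 (amisyn), which carries a VAMP-like SNARE motif, read 8.63, 8.55 and 8.40 with norepinephrine, against 8.31, 8.11 and 8.36 with KCl. The groups were separate by a small gap, at 0.27 ± 0.18, and 0.29 without KCl replicate 1. The tomosyns Stxbp5 and Stxbp5l, which compete with VAMPs for the target SNAREs, differed by 0.083 and -0.061, and by -0.22 and -0.011 without that array. The SM proteins Stxbp2 and Stxbp3 stood at -0.13 and 0.12, and changed sign to 0.03 and -0.064 without it. Stxbp4 was at -0.039 on its brighter probe set and 0.14 on the other, and at -0.33 and -0.21 without KCl replicate 1.

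Complexins differed among themselves. Cplx2, a complexin of forebrain neurons, read 8.82, 8.65 and 9.09 with norepinephrine, against 8.58, 8.00 and 8.42 with KCl. The norepinephrine samples all lay above the KCl samples, and KCl replicate 1 came nearest to them. The difference was 0.52 ± 0.22 (95% interval 0.017 to 1.03; unadjusted p = 0.0442, adjusted p = 0.939 in limma) and 0.65 ± 0.20 without KCl replicate 1. Cplx1, the other main complexin of brain, read 7.28, 7.12 and 7.21 with norepinephrine, against 7.62, 6.98 and 7.31 with KCl. The norepinephrine samples fell inside the KCl range, and the difference was -0.10 ± 0.21, or 0.058 without KCl replicate 1. Cplx3 and Cplx4, complexins of retinal ribbon synapses, stood at -0.14 and -0.20, and at 0.10 and -0.089 without that array.

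Synaptotagmins, the calcium sensors and their relatives, formed the largest family and had no member at an unadjusted p under 0.05. Of 17, 6 read higher with norepinephrine, at a median difference of -0.077, and 12 were higher without KCl replicate 1, with a median of 0.069. Syt1, the fast calcium sensor of transmitter release, read 6.51, 6.48 and 7.14 with norepinephrine, against 6.66, 6.67 and 6.51 with KCl. Norepinephrine replicate 3 alone lay above the KCl samples, the array that was also highest for Snap25 and Cplx2. The Syt1 difference was 0.093 ± 0.23. Leaving norepinephrine replicate 3 out turned it to -0.122, and leaving KCl replicate 1 out gave 0.12. The related fast sensors Syt2 and Syt9 stood at -0.13 and 0.0037, and at 0.057 and 0.12 without KCl replicate 1.

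Syt7, a slow, high-affinity sensor, read 7.65, 7.42 and 7.66 with norepinephrine, against 8.46, 7.27 and 8.09 with KCl. The KCl samples lay on both sides of the norepinephrine samples, and the difference was -0.36 ± 0.30, or -0.10 without KCl replicate 1. Syt8 read 7.37, 7.04 and 7.49 with norepinephrine, against 7.98, 7.09 and 7.57 with KCl. It too was highest on KCl replicate 1, with -0.25 ± 0.26 on all arrays and -0.031 without that one. Syt10 read 6.12, 5.92 and 6.12 with norepinephrine, against 6.55, 6.20 and 6.40 with KCl. Its groups did not overlap, and it was dim, at -0.33 ± 0.19, or -0.24 without that array.

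Syt11, a synaptotagmin that does not bind calcium and acts in membrane traffic, was the steadiest gene of the group. It read 11.28, 11.27 and 11.30 with norepinephrine, against 11.18, 11.26 and 11.30 with KCl. All 6 arrays fell within 0.12, and the difference was 0.039 ± 0.17, where the standard error is that of the moderated fit and exceeds the spread of this gene. Without KCl replicate 1 it was 0.0038. Syt12 differed by 0.21 ± 0.18, or 0.29 without that array, with separate groups at a dim level. The remaining synaptotagmins, Syt3 to Syt6 and Syt13 to Syt17, lay between -0.15 and 0.051, and between -0.11 and 0.30 without it.

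Of the SV2 proteins, transporter-like proteins of the vesicle membrane, Sv2a is the binding site of the antiepileptic drug levetiracetam. It read 8.49, 8.78 and 8.18 with norepinephrine, against 7.49, 8.19 and 7.77 with KCl. The groups overlapped only where KCl replicate 2 met norepinephrine replicate 3. The difference was 0.67 ± 0.25 (95% interval 0.10 to 1.23; unadjusted p = 0.0255, adjusted p = 0.939 in limma), and 0.50 ± 0.22 without KCl replicate 1. Sv2b read 6.37, 6.15 and 6.60 with norepinephrine, against 6.65, 6.03 and 6.34 with KCl. Its norepinephrine range lay inside its KCl range, at 0.034 ± 0.23, or 0.19 without KCl replicate 1. Sv2c varied widely in both groups, at 7.70 ± 0.44 with norepinephrine and 7.52 ± 0.61 with KCl (SD), and differed by 0.18 ± 0.34, or by -0.11 without that array.

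Of the synapsins, which tether vesicles away from the release site, Syn1 and Syn2 were close to equal between the groups. Syn1 read 7.59, 7.47 and 7.49 with norepinephrine, against 7.57, 7.33 and 7.45 with KCl. All 6 samples lay within 0.26, and the difference was 0.065 ± 0.18, or 0.13 without KCl replicate 1. Syn2 read 8.41, 8.74 and 8.81 with norepinephrine, against 8.38, 8.43 and 8.90 with KCl. Replicate 3 was highest in both groups, and the difference was 0.082 ± 0.22, or -0.014 without KCl replicate 1. Syn3 averaged 7.38 ± 0.28 with norepinephrine and 7.14 ± 0.47 with KCl (SD), a difference of 0.24 ± 0.27 that was 0.46 without KCl replicate 1.

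Promoters of 4 of these genes are shown. Sv2a, Cplx2 and Stx19 gave unadjusted p-values under 0.05 in limma. Syn1 did not, as most members did not, and was picked from them by no set rule. Each promoter runs from 250 bases before to 50 bases after a RefSeq gene start (build GRCm38.p6), 5′ to 3′ on the strand of the gene. Capitals mark exact matches on either strand to 5 motifs, chosen with the results known: the cAMP response element (CRE) TGACGTCA, the target of the factor CREB that cAMP and calcium signals activate, its core TGACG, which the full CRE contains, the GC box GGGCGG, the TATA box TATAAA, and TTCAGCACC, the left part of RE1, the element of the neuronal gene repressor REST. Sv2a lies at chr3:96180977-96181276 (+), Cplx2 at chr13:54302306-54302605 (+), Stx19 at chr16:62814426-62814725 (+) and Syn1 at chrX:20920869-20921168 (-).
Sv2a: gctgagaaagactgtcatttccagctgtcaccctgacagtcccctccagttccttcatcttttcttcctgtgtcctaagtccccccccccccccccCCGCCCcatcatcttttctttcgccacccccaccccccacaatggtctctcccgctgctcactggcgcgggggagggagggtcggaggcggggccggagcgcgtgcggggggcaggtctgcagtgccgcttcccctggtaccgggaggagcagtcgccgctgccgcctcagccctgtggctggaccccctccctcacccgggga
Cplx2: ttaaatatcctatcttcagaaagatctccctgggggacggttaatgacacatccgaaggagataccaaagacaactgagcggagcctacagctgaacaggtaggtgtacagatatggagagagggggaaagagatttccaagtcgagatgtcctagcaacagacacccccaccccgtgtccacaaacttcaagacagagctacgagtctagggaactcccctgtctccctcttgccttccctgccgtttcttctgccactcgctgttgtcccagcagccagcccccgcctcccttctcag
Stx19: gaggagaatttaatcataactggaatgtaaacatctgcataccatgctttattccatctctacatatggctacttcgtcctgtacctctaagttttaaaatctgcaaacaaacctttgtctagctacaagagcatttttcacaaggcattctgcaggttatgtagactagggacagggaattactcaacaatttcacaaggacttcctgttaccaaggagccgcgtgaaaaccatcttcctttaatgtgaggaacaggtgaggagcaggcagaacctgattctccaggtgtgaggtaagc
Syn1: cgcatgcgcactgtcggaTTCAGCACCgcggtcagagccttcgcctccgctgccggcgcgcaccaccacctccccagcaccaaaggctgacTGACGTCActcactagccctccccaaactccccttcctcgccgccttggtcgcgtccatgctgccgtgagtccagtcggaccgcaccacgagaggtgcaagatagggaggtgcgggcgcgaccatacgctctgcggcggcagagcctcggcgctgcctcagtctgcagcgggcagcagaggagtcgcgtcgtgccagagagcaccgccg
Sv2a held 1 GC box in a window of 68.0% G and C, and the windows of Cplx2 and Stx19 held none of the 5 motifs. Syn1 held a full CRE and the RE1 part. A match is a string of letters and not a tested binding site.

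RefSeq windows were found for 47 of the 58 genes, 62 windows in all, and Snap25 was among the 11 without one. The CRE core was in 21.0% of these windows, against 20.8% of all 32851 windows, and the full CRE in 3.23% against 1.79%. The genes with the full CRE were Syn1 and Stxbp3, whose expression differed by 0.065 and 0.12. The GC box was in 62.9% of the windows, against 35.7% of all, and the TATA box in 6.45% against 13.6%. The RE1 part was found in Syn1 alone of these genes, and in 0.371% of all windows.

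KCl replicate 1 deviated most in some of the bright genes. Its value minus the mean of KCl replicates 2 and 3 was -2.85 for Vamp3, -2.27 for Stx12, -1.85 for Vamp4 and -1.70 for Stx4a, and these were the 4 genes lower by more than 1. Syt7, on the other side, was 0.78 higher. In all 36 of the 58 genes were higher on that array. Across the 58 genes this deviation had a Pearson correlation of -0.66 with the mean over the arrays, a description of genes that share the same arrays, and it was -0.54 over all 21640 named probe sets. Not every bright gene followed. Syt11, with a mean of 11.27, was at -0.10. Stx7, Snap47, Vamp7 and Snap23, with means of 9.05 to 9.34, were at -0.34, 0.05, -0.32 and -0.42.

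**Figure D3:**
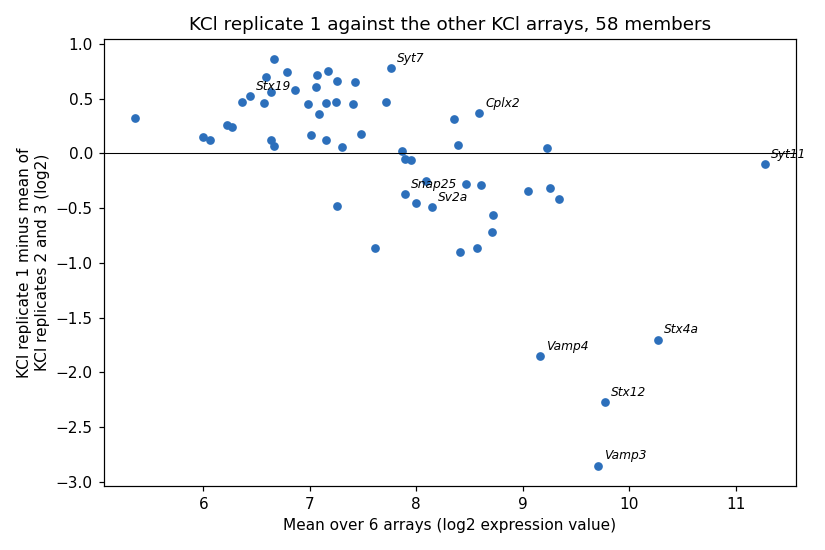
KCl replicate 1 minus the mean of KCl replicates 2 and 3 (log2, y axis) against the mean over 6 arrays (log2 expression value, x axis); each point is 1 of the 58 genes. Vamp3, Stx12, Vamp4 and Stx4a lie more than 1 below 0, and most dim genes lie above 0.

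Genes that work beside the fusion machinery were read in lists. Of 27 genes of the active zone and of vesicle priming, 11 read higher with norepinephrine, at a median difference of -0.086 (0.085 without KCl replicate 1) and 0 at an unadjusted p under 0.05 in limma. Of 17 genes of the vesicle membrane and transmitter loading, 5 read higher with norepinephrine, at a median difference of -0.09 and 0 at that level. Without KCl replicate 1 the count was 9 of 17 and the median 0.042. The 4 genes that take SNARE bundles apart, among them the ATPase Nsf at 0.24 ± 0.28, had a median of 0.10, or -0.039 without KCl replicate 1. Of 19 genes of vesicle endocytosis, 14 read higher with norepinephrine, at a median difference of 0.075 and 1 at an unadjusted p under 0.05. Without KCl replicate 1 the count was 10 of 19 and the median 0.031. The gene at that level on 6 arrays was Dnm3, a dynamin that pinches vesicles off the membrane, at 7.66, 7.82 and 7.82 with norepinephrine, against 7.04, 7.51 and 7.38 with KCl. Its samples did not overlap, at 0.46 ± 0.20, or 0.32 without KCl replicate 1. Dnm3 did not keep that level without KCl replicate 1, where Dnm1 of the same list reached it, at 0.45 ± 0.17. Of 17 SNAREs and SM partners outside the names above, 10 read higher with norepinephrine, at a median difference of 0.064 (-0.033 without KCl replicate 1). Among them Vti1b, an endosomal SNARE, had an unadjusted p under 0.05, at 0.82 ± 0.33, or 0.46 without that array. In all 5 lists 0 genes had an adjusted p under 0.05, as did 0.0% of all probe sets. An unadjusted p under 0.05 was reached by 3.43% of all probe sets, and by 4.63% without KCl replicate 1.

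Markers of cell types were read beside these genes. Of 13 neuron markers, 10 read higher with norepinephrine, and the median difference was 0.15 (0.26 without KCl replicate 1). Their mean level was 7.68 to 7.94 on the norepinephrine arrays and 7.54 to 7.72 on the KCl arrays. The growth cone protein Gap43 at 0.58 ± 0.19 and the neuronal tubulin Tubb3 at 0.47 ± 0.18 had unadjusted p-values under 0.05. Map2 stood at -0.33 ± 0.18 and the neuronal nuclear protein Rbfox3 at 0.081 ± 0.20. Without KCl replicate 1 Gap43 and Tubb3 kept that level, at 0.61 and 0.44. Map2 then reached it too, with KCl higher, at -0.40 ± 0.16. Of 10 astrocyte markers, 9 read higher with norepinephrine, and the median difference was 0.88 (0.45 without KCl replicate 1). Their mean level was 9.29 to 9.36 on the norepinephrine arrays and 8.26 to 8.63 on the KCl arrays. Of these 10 markers 7 had an unadjusted p under 0.05, where 3.43% of all probe sets did. Without KCl replicate 1 the count was 6, where 4.63% of all probe sets reached that level. Gfap, the filament protein of astrocytes and neural stem cells, stood at 1.89 ± 0.30, with an adjusted p of 0.774 in limma on 6 arrays. Only without KCl replicate 1, at 2.17 ± 0.24, was its adjusted p under 0.05, at 0.045 in limma. In that fit 0.0185% of all probe sets had an adjusted p under 0.05. The part of these markers in the differences of Snap25, Sv2a and Cplx2 was not tested.

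Markers of neural stem cells and precursors had a mean level of 9.66 to 9.75 with norepinephrine and 9.27 to 9.60 with KCl, with 5 of 9 higher with norepinephrine and a median of 0.35 (0.13 without KCl replicate 1). Of 9 oligodendrocyte lineage markers 4 were higher with norepinephrine, at mean levels of 8.06 to 8.13 with norepinephrine and 7.90 to 8.16 with KCl. Of 9 microglia markers 1 was higher, at 6.12 to 6.27 with norepinephrine and 6.22 to 6.81 with KCl. Of 8 endothelium and pericyte markers 1 was higher, at 6.02 to 6.23 with norepinephrine and 5.92 to 6.64 with KCl. On 6 arrays the median differences of the last 3 lists were -0.052, -0.25 and -0.12. KCl replicate 1 was the highest array for these lists, and their medians were 0.13, 0.01 and 0.059 without it.

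**Figure D4:**
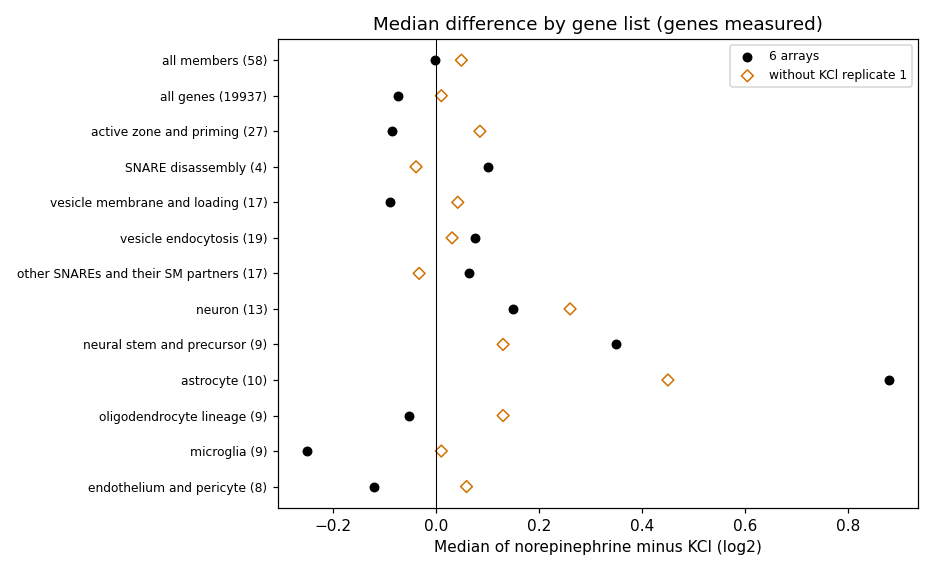
Median of norepinephrine minus KCl (log2, x axis) over the genes of each list (y axis, with the number of genes measured); black points use 6 arrays and open diamonds leave out KCl replicate 1. The fusion genes lie at -0.003 and 0.049, all genes at -0.075 and 0.01, and the astrocyte markers at 0.88 and 0.45.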

How the data were processed

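RNA of 6 neurosphere samples was measured on 1 whole-transcript array each. Deposited was a log2 expression value for every probe set, and per the submitters' processing notes the authors used Partek and RMA, of which the version and settings were not given in the sources used here. Scanner files were not used, so no probe set could be called undetected.

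The platform table gave 1 symbol for 21640 of 34760 probe sets, several for 1321 and none for 11799. All 58 members matched the RefSeq table of GRCm38.p6 by Entrez identifier, with 0 symbols changed. A gene took its probe set of highest mean over the 6 arrays.

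Treatments were compared with limma 3.58.1 in R 4.3.3 (lmFit, eBayes, no covariate, two-sided) over the 21640 probe sets, with Benjamini-Hochberg adjustment at 0.05. The step was tested on simulated data. The labels do not say that equal replicate numbers mark a shared mouse or culture, so the numbers were not taken as pairs. Same-numbered samples did deviate together, with correlations of 0.301, 0.626 and 0.0852, and a replicate block was run as an alternative.

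Members, lists and tests were chosen with earlier results of these data known. Values per array were set for 12 neuronal release genes where measured, for members at an unadjusted p under 0.05, and for the 6 largest differences in each direction above the 30th percentile. Other members shown per array, among them Snap91, Stx6, Stxbp6, Syt10 and Syt11, were chosen after their values were seen, as were the motifs. Alternatives were normalization, dim-probe filters, variance moderation, array weights, a replicate block, other probe set choices and leaving out each array.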

Additional observations from a re-analysis of the deposited data

How the results depend on the processing

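Of 19 genes set by rule, 13 kept their direction in every one of the 16 alternatives that tested them. Not every alternative could turn a direction, so that count overstates how far direction was tested. Variance moderation, the replicate block and the dim-probe filters leave a gene's difference unchanged. Other probe set choices changed nothing either, because these genes had 1 probe set each. The filters on dim probe sets gave no value for Stx19 and Sv2b (both filters) or Stx1a and Syt1 (the filter at the median). The number with an adjusted p under 0.05 was 0 in every alternative but gene-by-gene array weights, added after seeing the data. Those weights gave 5 genes, where 6.72% of all probe sets passed. At an unadjusted p under 0.05 they gave 13 genes, where 23.9% of all probe sets did. The planned array weights did not converge, gave KCl replicate 3 a weight of 673, and were not used. Leaving out each array gave 1 to 7 genes at an unadjusted p under 0.05: 1 without norepinephrine replicate 1, 2 without norepinephrine replicate 2, norepinephrine replicate 3 or KCl replicate 3, and 7 without KCl replicate 2. Of all probe sets, 16.3% reached it without KCl replicate 2 and 4.63% without KCl replicate 1. That share was not worked out for the other arrays left out or for the replicate block, so those counts have no background to be read against. With the replicate block 4 genes had an unadjusted p under 0.05 and 0 an adjusted one, and the block changed no call. It did lower their unadjusted p-values in limma, to 0.000395 for Snap25, 0.00852 for Sv2a, 0.0219 for Cplx2 and 0.0325 for Stx19. The adjusted p of Snap25 was 0.316 in that fit. With norepinephrine replicates 1, 2 and 3 or KCl replicates 1, 2 and 3 left out in turn, the difference of Stx12 ran from -0.071 to 1.33, of Cplx1 from -0.259 to 0.058, of Syn2 from -0.014 to 0.249, of Sv2b from -0.122 to 0.192, of Syt1 from -0.122 to 0.208 and of Stx18 from -0.383 to 0.053. Syn2 was -0.057 after a further quantile normalization, and with gene-by-gene array weights Syn2 was -0.214 and Stx18 0.122. The cause of these changes was not tested. Signal over background was not available, so what dim readings such as Stx19 and Syt10 can show is limited.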
